A study of Cavia porcellus with 13 samples.

Results

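The S100A family of calcium-binding proteins was followed in guinea pig skin at sites of tick attachment. Of the 10 S100A symbols looked for, matched without regard to case, 6 had a row in the deposited table of 26855 genes: S100A9, S100A4, S100A11, S100A14, S100A16 and S100A1. S100A6, S100A8, S100A10 and S100A12 matched no symbol and were not analysed here. Of the 26855 genes only 18254 carried a symbol, so a row without one could hold any of these. All 6 genes passed the filter on low values, and the 5 other than S100A9 served as its comparison.

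Skin RNA was sequenced in 13 libraries, all labelled day 4 after attachment. The bitten skin came from animals at their first exposure to ticks (3 libraries), animals labelled saliva immune and then bitten (3), animals with 2 tick bites (2) and animals with 3 tick bites (2). The naive skin carried no bite (3 libraries). The labels give neither strain, age nor sex, nor the way of saliva immunization, nor if each library was made from an animal of its own. The p-values therefore refer to the spread among these libraries, some of which may be technical. The library titles carry 2 prefixes, CK1 (first exposure, saliva immune and naive replicates 1 and 2) and EF19-5 (2 bites, 3 bites and naive replicate 3), which the labels do not explain and which were treated as 2 experiments.

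S100 proteins are small proteins with a pair of EF-hand loops that bind calcium and then expose a surface for partner proteins. S100A9 pairs with S100A8 to form calprotectin, an abundant cytosolic protein of human and mouse neutrophils and monocytes that binds zinc and manganese and, once released, acts as an alarmin through Toll-like receptor 4 and RAGE. Keratinocytes of inflamed skin are also known to make it. S100A11, S100A14 and S100A16 are known from epithelia, S100A4 from fibroblasts and also from leukocytes, and S100A1 from heart and skeletal muscle. In bulk skin, more cells of a type and more RNA per cell cannot be told apart.

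Levels are given in TPM, a measure of a gene's share of all transcripts that corrects for gene length, so those of different genes can be set beside each other; the depth behind the values is unknown. Between 13270 and 14391 genes per library reached 1 TPM. Basal keratinocyte markers were present in every library, at 1.01% to 1.83% of summed TPM in bitten and 0.653% to 1.27% in naive skin. The amount of skeletal muscle RNA differed widely between biopsies: the skeletal muscle list took 0.501% to 8.36% of summed TPM in bitten libraries and 2.03%, 8.43% and 14.8% in naive replicates 3, 1 and 2. Its part in the results was not tested.

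S100A9 was higher in each of the 10 bitten libraries than in any naive one, and it was the only one of the 6 genes of which that held. In first exposure skin it stood at 212, 717 and 2231 TPM, and in saliva immune skin at 1139, 416 and 277 TPM. In 2 bites skin it stood at 468 and 512 TPM and in 3 bites skin at 171 and 624 TPM, against 116, 80.8 and 159 TPM in the 3 naive libraries. The closest approach was between 3 bites replicate 1, at 171 TPM, and naive replicate 3 of the same experiment, at 159 TPM. Of all 14979 genes tested, 1.03% lay higher in every bitten library than in every naive one.

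The means of S100A9 ran from 1053 ± 1051 TPM in first exposure (SD, n = 3) and 611 ± 463 in saliva immune skin (n = 3) to 490.5 ± 31.1 in 2 bites (n = 2), 398 ± 320.4 in 3 bites (n = 2) and 119 ± 39.0 in naive skin (n = 3). Libraries of one bitten group overlapped those of its neighbour in this order throughout. The 2 bites pair, whose libraries differ least, lies inside the range of the other groups.

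S100A9 also varied widely between libraries of like treatment. It ranged from 171 to 2231 TPM among bitten libraries, and its highest library held 27.6 times the level of its lowest over all 13. Its SD within groups was 1.18 on the log2(TPM + 1) scale, above that of 99.5% of the genes tested. Naive skin was split by experiment for this SD, so naive replicate 3, alone in its part, added no spread. In first exposure replicate 3 it ranked 68th of 26855 genes by level, and in naive replicate 2 it ranked 1638th. It was the most abundant of the 6 genes in first exposure replicate 3 and saliva immune replicate 1, where it made up 37.1% and 25.1% of their summed TPM. In the other bitten libraries its share was 3.65% to 14.6%, and in the naive libraries 3.23% to 3.81%.

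**Figure D1:**
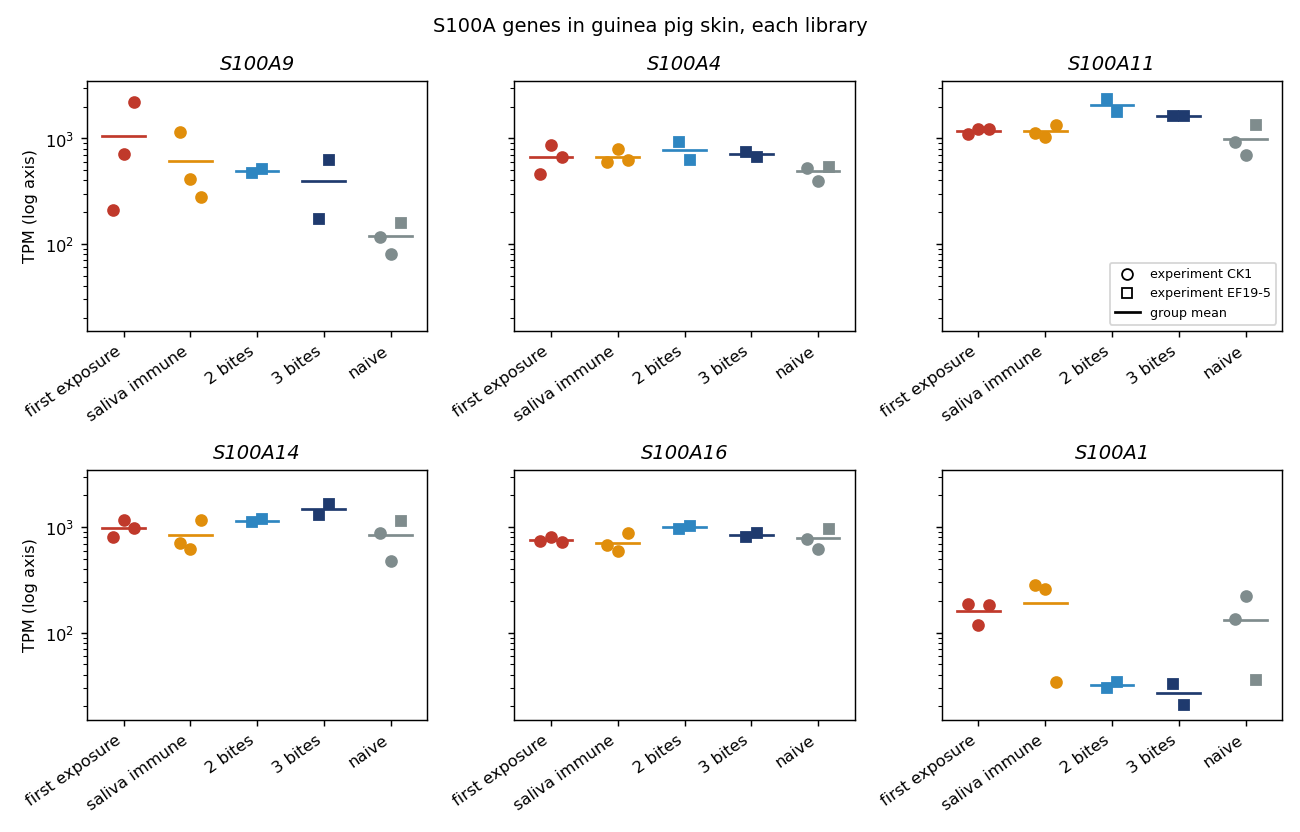
TPM of each S100A gene (log axis) in every library by group; circles are CK1 and squares EF19-5 libraries, and bars are group means. S100A9 spans 80.8 to 2231 TPM with naive libraries lowest, while S100A16 stays between 592 and 1036 TPM in all 13 libraries.

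On the log2(TPM + 1) scale S100A9 was 2.16 higher in bitten than in naive skin (SE 0.613, a fold of 4.48, 95% interval 0.84 to 3.48), a difference exceeded by few genes: it lay above that of 99.9% of those tested, whose median was 0.10. The adjusted p was 0.149 by limma with Benjamini-Hochberg adjustment over all genes, so it did not pass the threshold of 0.05. The difference was 2.61 within CK1 and 1.33 within EF19-5, where the naive side is a single library. The EF19-5 difference minus the CK1 difference was -1.28 (SE 1.29, limma adjusted p = 1), so the experiments were not shown to differ.

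By exposure history, S100A9 differed from naive skin by 2.83 in first exposure (SE 0.909, limma adjusted p = 0.262) and by 2.38 in saliva immune skin (SE 0.909, adjusted p = 0.377). It differed by 1.62 in 2 bites (SE 1.22, limma adjusted p = 0.965) and by 1.04 in 3 bites skin (SE 1.22, adjusted p = 1). These comparisons share naive libraries and are not independent. The 3 bites difference was 0.11 without 3 bites replicate 2 and 1.97 without 3 bites replicate 1, so single libraries set it. Between bitten groups, saliva immune minus first exposure was -0.46 (95% interval -2.27 to 1.36) and 3 bites minus 2 bites was -0.58 (-2.80 to 1.64), and the sign of both turned when 1 library was left out. Repeat bites, the mean of 2 and 3 bites, minus first exposure was -1.51 (95% interval -4.71 to 1.70), a range wide enough to hold a large change either way.

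limma called 0 of the 6 genes in bitten against naive skin, where it called 0.0401% of all genes, and 3 of the 6 (S100A9, S100A11 and S100A4) had an unadjusted p under 0.05, as had 15.8% of all genes. It also called 0 of 6 in first exposure (0.0334% of all genes), saliva immune (0.00668%), 2 bites (0.0134%) and 3 bites skin (0.00668%) against naive skin. At an unadjusted p under 0.05 these held 2, 2, 1 and 0 of the 6, beside 13.6%, 11.6%, 5.87% and 2.34% of all genes. Between saliva immune and first exposure, 3 and 2 bites, and repeat bites and first exposure, limma called 0 of 6 with 0% of all genes. With array weights it called 14.5% of all genes between saliva immune and first exposure skin, and again 0 of 6. The other settings called at most 0.128% in these comparisons (no filter on low values, repeat bites against first exposure), and 0 of 6. Without such changes of setting, these comparisons held 0 of 6 at an unadjusted p under 0.05 as well, beside 2.34%, 10.8% and 3.32% of all genes.

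**Figure D2:**
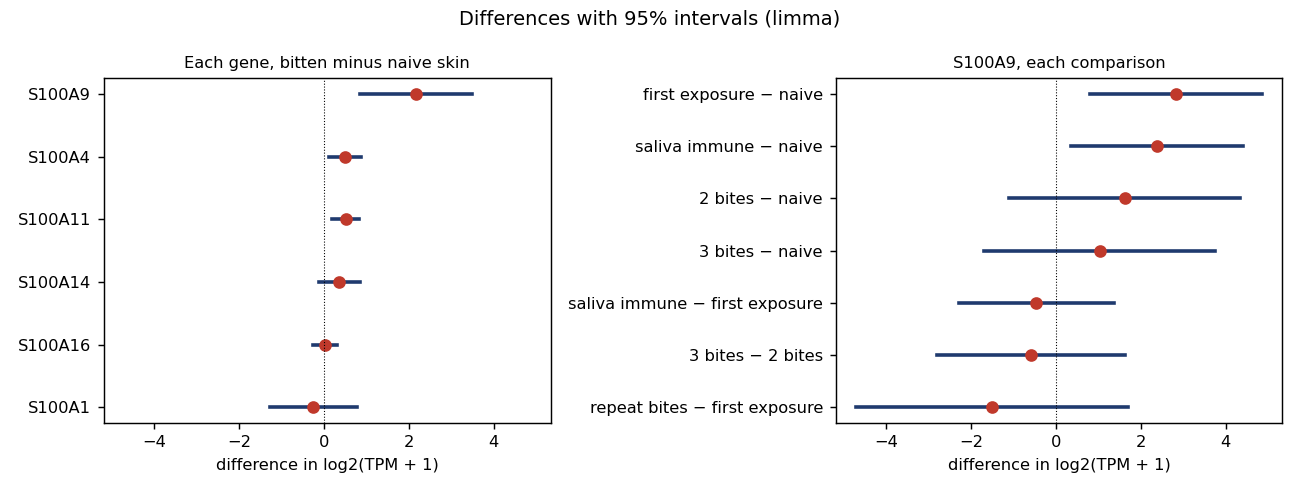
Differences in log2(TPM + 1) from limma with 95% intervals, on the left for each S100A gene in bitten minus naive skin and on the right for S100A9 in 7 comparisons of exposure groups. In bitten minus naive skin the S100A9 interval, 0.84 to 3.48, lies above that of S100A16, -0.25 to 0.32, S100A11, 0.20 to 0.82, and S100A1, -1.27 to 0.77. It meets that of S100A14, -0.12 to 0.84, and overlaps that of S100A4, 0.11 to 0.88. Each interval takes its gene alone, while all genes share the same libraries, so overlap here does not test S100A9 against another gene.

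Of the epithelial members, S100A11, which with annexin A1 takes part in membrane repair and keratinocyte growth control, was the most abundant S100A gene in most libraries. It stood at 1090.1, 1229 and 1235 TPM in first exposure and 1126, 1023 and 1343 TPM in saliva immune skin, against 917 and 696 TPM in the naive libraries of CK1. In EF19-5 it stood at 2379 and 1794 TPM in 2 bites and 1638 and 1615 TPM in 3 bites skin, against 1352 TPM in the naive library. Every bitten library thus lay above the naive skin of its own experiment. Taken singly, that held for 10.6% of all genes within CK1 and 16.9% within EF19-5, and the share meeting both was not counted. Its difference of 0.51 (SE 0.142, limma adjusted p = 0.143) was small beside that of S100A9 but similar in both experiments, 0.55 within CK1 and 0.44 within EF19-5.

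S100A14, which is known from the plasma membrane of epithelial cells, and S100A16, a broadly expressed member, did not separate bitten from naive skin. S100A14 lay between 623 and 1664 TPM in bitten (median 1144) and at 883, 479 and 1139 TPM in naive skin, with a difference of 0.36 (SE 0.224, limma adjusted p = 0.447); that was 0.10 without naive replicate 2. S100A16 lay between 592 and 1036 TPM in bitten (median 804) and at 765, 626 and 952 TPM in naive skin. Its difference was 0.03 (95% interval -0.25 to 0.32, limma adjusted p = 0.927), and its sign turned to -0.09 under median-of-ratios scaling. Of the 6 genes S100A16 varied least, its highest library holding 1.75 times its lowest.

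S100A4, a motility protein that binds non-muscle myosin, had its lowest level in naive skin. It stood at 463, 868 and 660.1 TPM in first exposure, 603, 800.1 and 619.9 TPM in saliva immune, 935 and 628 TPM in 2 bites and 740.4 and 674 TPM in 3 bites skin, against 529, 398 and 535 TPM in naive skin. First exposure replicate 1 lay inside the naive range, and the other 9 bitten libraries lay above it. The difference was 0.49 (SE 0.179, limma adjusted p = 0.223), with 0.51 within CK1 and 0.46 within EF19-5.

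S100A1 was low in every EF19-5 library, bitten or not, and within CK1 lowest in the library with the fewest muscle transcripts. It stood at 186, 117 and 183 TPM in first exposure and 282, 260 and 34.4 TPM in saliva immune skin, against 134 and 224 TPM in the naive libraries of CK1. In EF19-5 it stood at 30.0 and 34.4 TPM in 2 bites and 32.7 and 20.6 TPM in 3 bites skin, against 35.4 TPM in naive skin; all 4 bitten libraries lay below the naive one, as did 15.3% of all genes. The saliva immune library at 34.4 TPM had 2.06% skeletal muscle transcripts, where the other 2 of its group had 7.39% and 8.36%, and all EF19-5 libraries had 0.501% to 2.03%. Its difference between bitten and naive skin was -0.25 (SE 0.473, limma adjusted p = 0.835). By its position in the RefSeq table, of another build than may have been used for the TPM, S100A1 lies inside the span of S100A13, so reads of the pair may not be separable; S100A13 itself stood at 25.2 to 58.2 TPM in bitten and 29.7 to 41.4 TPM in naive skin.

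**Figure D3:**
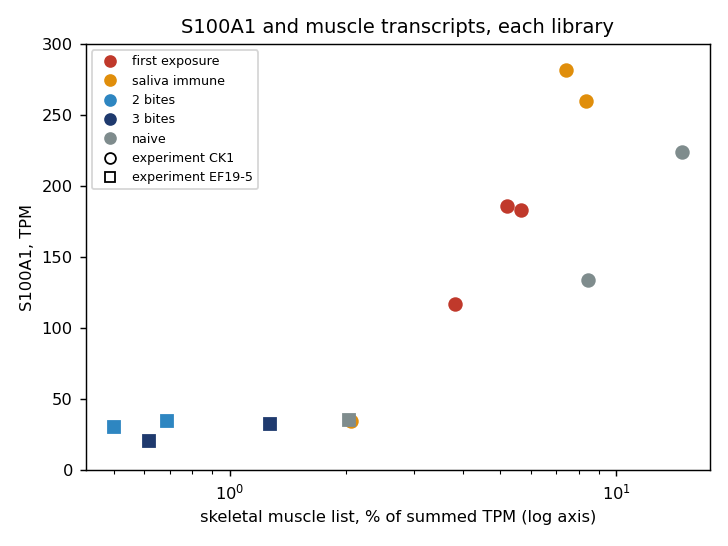
S100A1 TPM against the share of summed TPM taken by the skeletal muscle list (log axis), one point per library coloured by group; circles are CK1 and squares EF19-5 libraries. The 6 libraries with at most 2.06% muscle transcripts have 20.6 to 35.4 TPM, and the other 7 have 117 to 282 TPM.

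Set by exposure history, the other members differed from naive skin by less than S100A9 in each bitten group. S100A11 differed by 0.57 in first exposure, 0.53 in saliva immune, 0.61 in 2 bites and 0.27 in 3 bites skin (limma adjusted p from 0.292 to 1). S100A4 differed by 0.48, 0.54, 0.52 and 0.40 in the same groups and S100A14 by 0.58, 0.31, 0.02 and 0.37. Within groups, with naive skin again split by experiment, S100A11 and S100A16 were tight, with an SD of 0.19 and 0.18 on the log2 scale. S100A1 reached 0.97, next to S100A9. Between 3 bites and 2 bites skin the libraries did not overlap for S100A14, higher in 3 bites as were 35.6% of all genes, nor for S100A11 and S100A16, lower in 3 bites as were 11.5%. Saliva immune and first exposure libraries overlapped for all 6 genes, where 5.41% of all genes were higher and 1.35% lower throughout.

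How far S100A9 departed from the rest of the family was measured within each library, as log2(S100A9 TPM + 1) minus log2(other gene TPM + 1), a quantity that a common scaling of the library leaves nearly the same. Against S100A16 it averaged -0.65 ± 1.18 in bitten (SD, n = 10) and -2.74 ± 0.18 in naive skin (n = 3), and all 10 bitten libraries lay above all 3 naive ones. Against S100A11 it averaged -1.46 ± 1.23 in bitten and -3.05 ± 0.07 in naive skin (n = 10 and 3), with 9 of 10 bitten libraries above the naive range. The exception, 3 bites replicate 1 at -3.25, lay below all naive libraries. The naive libraries were tightly grouped against the epithelial genes, and the bitten ones spread over several log2 units. Against S100A4 the difference averaged -0.43 ± 1.11 in bitten and -2.07 ± 0.28 in naive skin, and against S100A14 -1.02 ± 1.24 in bitten and -2.77 ± 0.19 in naive skin, again with 3 bites replicate 1 as the exception. Against S100A1, low where muscle transcripts were few, it averaged 2.70 ± 1.47 in bitten and 0.16 ± 1.82 in naive skin, with 7 of 10 bitten libraries above the naive range.

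With the experiments kept apart, S100A9 was higher in bitten than in naive skin by 2.41 against S100A1 and by 2.13 against S100A16 (exact permutation p = 0.00714 and 0.0143; adjusted p = 0.0357 for both). It was higher by 1.80 against S100A14 and by 1.67 against S100A4 (exact permutation p = 0.0357 and adjusted p = 0.0429 for each). Against S100A11 it was higher by 1.65 (exact permutation p = 0.0429, adjusted p = 0.0429). These are two-sided tests over 140 arrangements of the labels within experiments, adjusted over the 5 pairs, and 0.00714 is the smallest p they can give. The 5 tests share S100A9 and are not independent, and the genes were chosen with earlier results of these data known. S100A9 itself differed by 2.16 and the other 5 genes by -0.25 to 0.51, so the tests largely repeat the S100A9 difference. Genes outside the family were not tested in their place, so no departure particular to the family is shown. All 5 differences had the same direction in each experiment, from 2.06 to 2.84 within CK1 and from 0.87 to 1.61 within EF19-5.

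Calls were lost when some single libraries were left out. All 5 were lost without first exposure replicate 2 (adjusted p = 0.0571 in the exact permutation test), saliva immune replicate 1 (up to 0.0762), naive replicate 1 or 2 (up to 0.114) or naive replicate 3 (0.0714). Without naive replicate 1 or 2 only 35 arrangements remained, with a smallest possible permutation p of 0.0286. Without naive replicate 3 the test was that of CK1 alone, with 28 arrangements and a smallest possible permutation p of 0.0357. The losses without a naive library thus reflect fewer arrangements as well. S100A4, S100A11 and S100A14 were also lost without first exposure replicate 3 (0.0571 by exact permutation) or 2 bites replicate 2 (0.0536). All but S100A1 were lost without saliva immune replicate 2 (0.0571 by exact permutation). The differences themselves stayed between 1.40 and 2.84 over these fits.

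**Figure D4:**
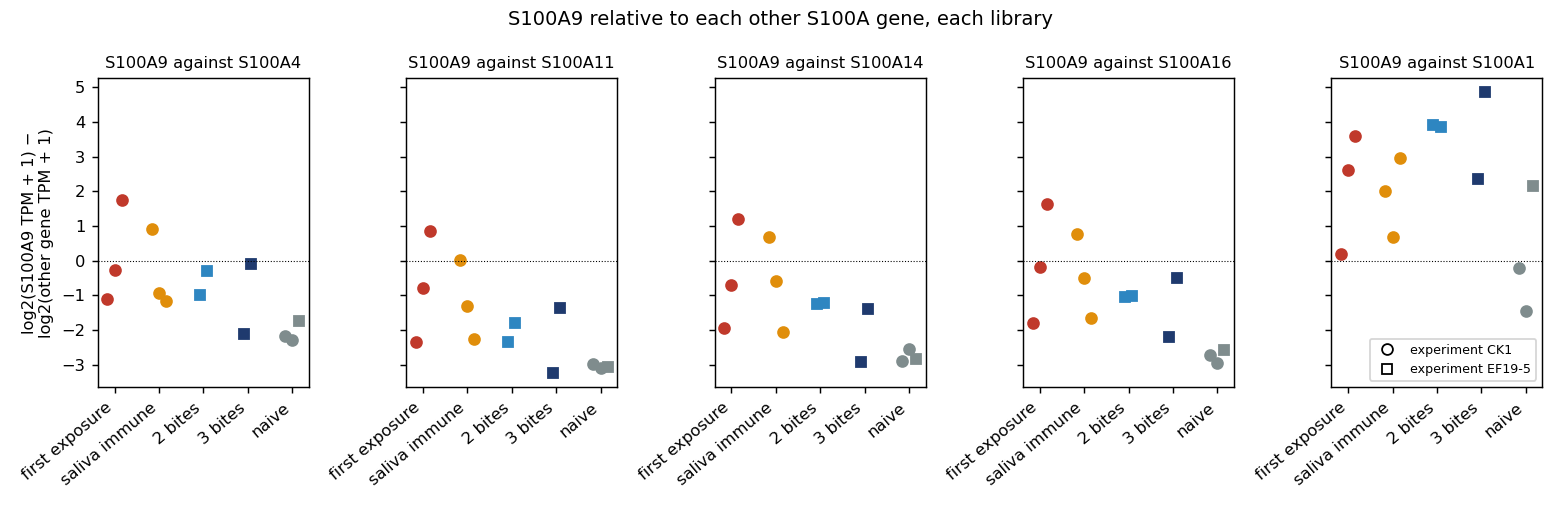
log2(S100A9 TPM + 1) minus the same value of each other S100A gene, one point per library by group; circles are CK1 and squares EF19-5 libraries, and the dotted line marks equal levels. Against S100A16 the naive libraries lie between -2.94 and -2.58 and the bitten ones between -2.21 and 1.62.

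The genes whose pattern was most like that of S100A9 over the 13 libraries were ranked by Pearson's r of log2(TPM + 1) after centring on the mean of each experiment, among 9769 genes with a symbol and a mean of at least 5 TPM. The first 8 were ZC3H12A (r = 0.929), SLURP1 (0.912), DCTN2 (0.893), LZIC (0.886), RBM3 (0.878), CHI3L1 (0.871), ANXA7 (0.865) and Serpinb6 (0.834). Without the centring their r over all 13 libraries was 0.61 to 0.853, and it was 0.87 to 0.955 within CK1 and 0.595 to 0.985 within EF19-5. The libraries share groups, experiments and a fixed sum, so these r values are a description and carry no test. ZC3H12A, an RNase that degrades inflammatory mRNAs, reached 68.1 and 48.9 TPM in saliva immune replicate 1 and first exposure replicate 3, against 2.92 to 16.2 TPM in naive skin. SLURP1, a secreted protein of keratinocytes, lay between 7.51 and 118 TPM in bitten and 3.70 and 40.4 TPM in naive skin. CHI3L1, a chitinase-like protein of neutrophils and macrophages, was highest in first exposure replicate 3 at 51.0 TPM, against a mean of 2.51 ± 1.12 TPM in naive skin (SD, n = 3). None of the 8 passed limma in bitten against naive skin, RBM3 coming nearest (adjusted p = 0.0729).

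The other family members were less like S100A9 than the genes just named, to differing degrees. Among the 9769 genes S100A11 ranked 198th with r = 0.646 and S100A4 355th with r = 0.587. S100A14 ranked 1499th (0.399), S100A16 4654th (0.129) and S100A1 5291st (0.075). Of the neutrophil and macrophage genes named below, CHI3L1 ranked above S100A11 and S100A4. TYROBP (827th), SPI1 (1512th), CYBA (1629th), CD14 (2092nd) and CD68 (2730th) ranked below both. A gene without a symbol, ENSCPOG00000040155, singled out after its values were seen, followed S100A9 more closely than any gene with one (r = 0.988, with 0.989 within CK1 and 0.982 within EF19-5). It stood at 75.8, 219.8 and 703 TPM in first exposure, 299.6, 90.0 and 75.0 TPM in saliva immune, 119.9 and 165 TPM in 2 bites and 48.5 and 228 TPM in 3 bites skin, against 38.6, 19.2 and 50.5 TPM in naive skin. S100A9 held between 2.73 and 4.63 times its level in every library. Its own difference was 2.13 (SE 0.646, limma adjusted p = 0.168).

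**Figure D5:**
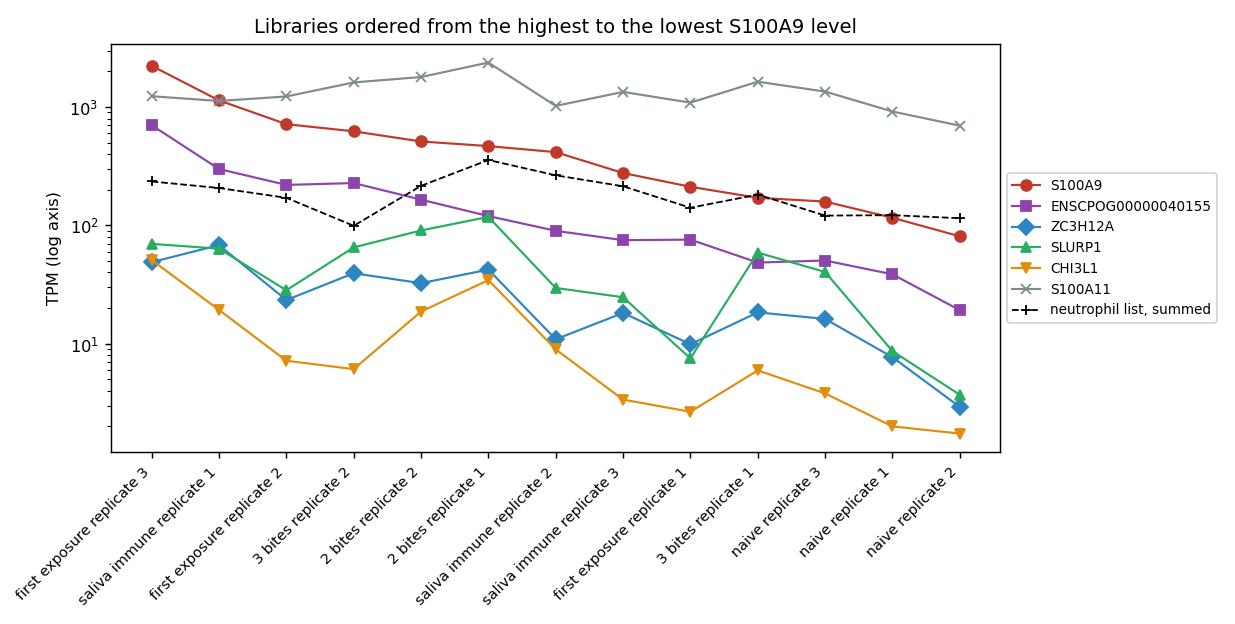
TPM (log axis) of S100A9, of genes whose pattern is like it, of S100A11 and of the summed neutrophil list, with the 13 libraries ordered from the highest to the lowest S100A9 level. ENSCPOG00000040155 runs parallel to S100A9, while the neutrophil sum peaks in 2 bites replicate 1 and is lowest in 3 bites replicate 2.

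Neutrophil markers were set beside S100A9 as a list. Of 32 listed genes 21 were in the table, and their summed level, S100A9 not included, was 141 to 357 TPM in 9 of the 10 bitten libraries, against 115 to 122 TPM in naive skin. Much of that sum is CYBA, at 68.9 to 189 TPM in bitten and 82.1 to 104 TPM in naive skin, which ranked 1629th by likeness to S100A9 (r = 0.384), while CHI3L1, on the same list, ranked 6th. The remaining bitten library, 3 bites replicate 2, held the lowest sum of all, 99.2 TPM, with 624 TPM of S100A9. 2 bites replicate 1 held the highest sum, 357 TPM, with 468 TPM of S100A9, and first exposure replicate 3, with 2231 TPM of S100A9, held 235 TPM. MPO, the myeloperoxidase of neutrophil granules, and LYZ, lysozyme, were listed at 0 in all 13 libraries. What lies behind a listed 0 was not tested. CSF3R, the receptor for the neutrophil growth factor G-CSF, lay between 0.0851 and 3.48 TPM in the bitten libraries, against a listed 0 in each naive one. It passed the filter on low values only through bitten skin, where any value above 0 gives no overlap, so its lack of overlap shows little. ELANE lay between 0 and 1.42 TPM in bitten skin and was listed at 0 in naive skin. CAMP, MMP8, PGLYRP1 and OLFM4 reached at most 0.607, 0.941, 0.0837 and 0.062 TPM. Of all genes tested, 1.03% lay higher in every bitten library than in every naive one. CXCR1 lay between 0.233 and 20.9 TPM in bitten and 0.0837 and 3.21 TPM in naive skin. MMP9 lay between 1.0 and 26.6 TPM in bitten and 0.0926 and 2.56 TPM in naive skin. PADI4 lay between 2.34 and 6.63 TPM in bitten and 3.29 and 6.77 TPM in naive skin. Among the 13 tested, 12 were higher and 1 lower in bitten skin. Their part in the S100A9 result was not tested.

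Of the 13 neutrophil genes tested, 0 passed limma in bitten against naive skin, beside 0.0401% of all genes, and 8 had an unadjusted p under 0.05, beside 15.8% of all genes, with a median difference of 0.81 against 0.10 over all genes. The 4 with the smallest p were NCF1 and CYBA, parts of the phagocyte oxidase, ITGAM, an integrin of neutrophils and macrophages, and CHI3L1. NCF1 averaged 5.35 ± 4.24 TPM in bitten (SD, n = 10) and 1.52 ± 1.00 in naive skin (n = 3), a difference of 1.14 (SE 0.423, limma adjusted p = 0.229). Of the 14 monocyte and macrophage genes tested, 0 passed limma and 7 had an unadjusted p under 0.05, beside the same 0.0401% and 15.8% of all genes, with a median of 1.07. The 4 with the smallest p were CD68, TYROBP, CD14 and SPI1, of which CD68 differed by 1.11 (SE 0.348, limma adjusted p = 0.178). The sum of the macrophage list was likewise highest in 2 bites replicate 1, at 1283 TPM, and stood at 188 TPM in 3 bites replicate 2, against 133 to 321 TPM in naive skin. All 9 basal keratinocyte and all 9 epidermal differentiation genes tested were higher in bitten skin, with medians of 0.51 and 0.6. In each of these lists 0 passed limma and 3 had an unadjusted p under 0.05, beside the same 0.0401% and 15.8% of all genes. Of the 13 listed genes of activated keratinocytes, 0 matched a symbol. The part of keratinocytes or macrophages in the S100A9 result was not tested.

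Among the 21 tested receptors and partners of S100 proteins, 0 passed limma in bitten against naive skin (0.0401% of all genes) and 4 had an unadjusted p under 0.05, a share near the 15.8% of all genes, with a median of 0.29. TLR4, the receptor for extracellular calprotectin, lay between 4.55 and 8.72 TPM in bitten and between 1.82 and 4.46 TPM in naive skin with no overlap, as did 1.03% of all genes, a difference of 0.73 (SE 0.184, limma adjusted p = 0.128). CD14, its co-receptor, differed by 1.21 (SE 0.415, limma adjusted p = 0.207), and CD36, a scavenger receptor that binds the fatty acid carried by calprotectin, by 1.14 (SE 0.306, adjusted p = 0.132). The adipocyte list took 0.557% to 1.51% of summed TPM in bitten and 0.216% to 0.309% in naive libraries of CK1. In EF19-5 it took 0.188% to 0.515% in bitten libraries and 0.43% in the naive one. The part of fat in the CD36 difference was not tested. ANXA2, the annexin that pairs with S100A10, was the most abundant of these, with 1729.5 to 4306 TPM in bitten and 1162 to 3046 TPM in naive skin, a difference of 0.46 (SE 0.206, limma adjusted p = 0.302).

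Of 19 cytokines and transcription factors known to induce S100A8 and S100A9, 13 had a row and 7 reached the level needed for testing. limma called 0 of the 7 in bitten against naive skin (0.0401% of all genes), and 3 had an unadjusted p under 0.05 (15.8% of all genes). The 4 with the smallest p were SPI1, the myeloid factor PU.1, the cytokine gene Tnf, STAT3, which relays interleukin signals, and CEBPB. SPI1 lay between 12.4 and 57.6 TPM in bitten and between 8.10 and 14.4 TPM in naive skin, a difference of 1.05 (SE 0.385, limma adjusted p = 0.225). Tnf averaged 2.59 ± 0.950 TPM in bitten (SD, n = 10) and 1.33 ± 0.720 in naive skin (n = 3). STAT3 averaged 219 ± 37.7 TPM in bitten and 166 ± 38.7 in naive skin, and CEBPB 244 ± 41.3 TPM in bitten and 209 ± 22.2 in naive skin. The bitten minus naive difference of all 7 lay above the median difference of all genes, 0.10. IL22, an inducer of calprotectin in keratinocytes, was listed at 0 in all 13 libraries.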

How the data were processed

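The authors deposited one TPM table, with a column for each of the 13 libraries that sums to 1000000. The submitters' processing notes name Trimmomatic, StringTie and DESeq but no version or role. Aligner, build and gene models: not given in the sources used here. TPM keeps no depth. Libraries were grouped by their immunization label, and the title prefix was taken as the experiment.

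Genes reaching 1 TPM in 2 or more libraries were tested (14979 genes). log2(TPM + 1) was fitted with limma 3.58.1 in R 4.3.3, with the experiment as a term, an intensity trend and Benjamini-Hochberg adjustment over all genes, two-sided at 0.05. Folds are those of TPM + 1, so that the change of a low gene is understated. Bitten and naive skin were set against each other by one term of the model; a second model of 5 groups gave the other 7 comparisons, where 2 bites and 3 bites skin rest on naive replicate 3 alone, assumed to vary like the other groups. Ratios to S100A9 were tested by exact permutation within experiments (Python 3.11.15, pandas 2.3.3, numpy 2.4.6; figures with matplotlib 3.10.9). Both were tested on simulated data. Median-of-ratios scaling moved the median difference over all genes from 0.10 to -0.01 in bitten against naive skin, where S100A9 was then 2.04 higher, and by more than 0.1 in 4 other comparisons (first exposure and saliva immune against naive, 3 against 2 bites, repeat bites against first exposure).

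The members and lists were chosen with earlier results of these data known. From each of the receptor, inducer, neutrophil and macrophage lists the 4 genes with the smallest p in bitten against naive skin are named, with other S100 genes at 5 TPM or more and the 8 genes most like S100A9. Some further neutrophil genes, and genes listed at 0 in all libraries, are given outside that rule. Of the 7 listed epidermal genes with a fused S100 domain and the 13 of activated keratinocytes, 0 matched a symbol. Alternatives were a pseudocount of 0.1, no filter, median-of-ratios scaling, no experiment term, no trend, array weights, each experiment alone and each library left out.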

Additional observations from a re-analysis of the deposited data

Results flagged for a closer look

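S100A9 in first exposure replicate 3 stood at 2231 TPM, apart from the other 9 bitten libraries: the gap to the next, 1139 TPM in saliva immune replicate 1, was 0.53 of the whole range of the 10 bitten libraries, above Dixon's 95% critical value of 0.466. Among the 6 bitten libraries of its own experiment, CK1, the same gap was 0.541 of the range, below the critical value of 0.625. Both ratios are of untransformed TPM, and the gap was not tested on the log2(TPM + 1) scale used for the other tests. Of 18 sets of libraries tested at both ends, 1 passed its critical value, and chance alone flags about 1 in 20. Without that library S100A9 was still higher in bitten than in naive skin, by 1.90 on the log2 scale (limma adjusted p = 0.181).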

How the results depend on the processing

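Of 373 alternative values for the named S100A results, 314 kept their direction and their side of the threshold, 50 lost a call and 9 turned direction. The only results called at first were the 5 differences of S100A9 against another member, and all 50 losses were theirs. Each of these stayed called in 7 to 10 of 18 alternatives. For the limma results, keeping their side meant staying uncalled. 0 of the 6 genes passed limma in bitten against naive skin in any of 21 other fits (smallest adjusted p = 0.0839, for S100A11), and S100A9 stayed higher in all 21, by 1.33 to 2.61 on the log2 scale. Over all genes, the number called in bitten against naive skin was 6, with 1 to 31 when a library was left out, 92 with array weights and 2 to 14 under the other settings. Array weights also called 2174 genes between saliva immune and first exposure skin, where 0 were called without them, and no experiment term gave 254 in 2 bites against naive skin, where 2 were called with it; the estimation of the array weights stopped before it converged. Direction turned for S100A1 with array weights (0.07), for S100A16 with median-of-ratios scaling (-0.09), array weights (-0.04) and EF19-5 alone (-0.06), and for S100A9 in saliva immune against first exposure skin with array weights (0.31). With a library left out, the difference ranged from -0.45 to 0.02 for S100A1, -0.06 to 0.09 for S100A16, -1.31 to 0.38 for S100A9 in saliva immune against first exposure and -1.51 to 0.35 in 3 against 2 bites skin; the cause was not tested.

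For S100A9 against S100A1, S100A4, S100A11, S100A14 and S100A16, the bitten minus naive difference without an experiment term was 2.54, 1.64, 1.59, 1.74 and 2.09 (exact permutation, adjusted p = 0.0524 for each). On CK1 alone it was 2.84, 2.09, 2.06, 2.16 and 2.53 (adjusted p = 0.0714 by exact permutation, over 28 arrangements). On EF19-5 alone it was 1.61, 0.87, 0.89, 1.13 and 1.39, where 5 arrangements allow no p under 0.2. With a library left out the ranges were 1.92 to 2.84, 1.41 to 2.09, 1.40 to 2.06, 1.57 to 2.16 and 1.87 to 2.53. No call of these 5 was lost with a pseudocount of 0.1 or median-of-ratios scaling. No paired analysis was possible because the labels give no replicate numbers that join libraries of different groups. Depth is unknown in TPM values, so counting error could not be set beside any of these differences.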

Other observations

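Of the other S100 genes, S100A3, a protein of the hair cuticle, lay between 353 and 1659.5 TPM in bitten and 263 and 665 TPM in naive skin, with its highest level in 2 bites replicate 2, where the hair follicle list took 2.72% of summed TPM, the largest share of the 13 libraries. It differed by 0.35 between bitten and naive skin (SE 0.398, limma adjusted p = 0.692).

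S100B, a protein of adipocytes, Schwann cells and melanocytes, lay between 10.6 and 50.7 TPM in bitten and 5.98 and 19.2 TPM in naive skin, a difference of 0.89 (SE 0.416, limma adjusted p = 0.32). Its highest levels, 50.7 and 49.2 TPM, were in saliva immune replicate 3 and first exposure replicate 1, the libraries with the largest shares of adipocyte transcripts, 1.16% and 1.51%. S100G was listed at 0 in all 13 libraries, and S100A5 and S100Z averaged under 5 TPM. So did S100PBP, on the same list, which encodes an S100P-binding protein and not a family member. The part of hair follicle or fat in these values was not tested.

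A further gene without a symbol, ENSCPOG00000000748, singled out after its values were seen, resembled S100A9 (r = 0.943 after centring on the experiments, n = 13). It stood at 976 TPM in first exposure replicate 3 and 513 TPM in 3 bites replicate 2 and was listed at 0 in first exposure replicate 1, against a listed 0 in naive replicates 1 and 2 and 1.36 TPM in naive replicate 3.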
